A study of Caenorhabditis elegans with 10 samples.

Results

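The genes described here encode the translation initiation factors of Caenorhabditis elegans, taken by name: every gene whose symbol begins with eif-, ife-, ifg-, iffb- or iftb-, read at the transcript with the highest mean level and kept where that mean was at least 1 FPKM (footprints per kilobase of coding sequence, scaled to the total of the condition). The rule found 31 genes in 51 transcripts, all 31 passed, and they were set against the 9945 genes of 19985 in the table that passed the same filter. Ribosome profiling sequences the mRNA pieces that ribosomes shield from nuclease (footprints), and it was applied to whole wild-type (N2) worms raised at 20 °C to the first day of adulthood. The 5 conditions were worms collected at that point (20 °C), worms moved to 10 °C for a few hours (10 °C), and worms taken on to 4 °C, where they stayed for 1 day, 3 days or 5 days (day 1, day 3 and day 5). The day 5 group follows the sample titles, and the treatment field of the same samples gives 3 days, so all day 5 values rest on the titles. Each condition had 2 libraries, but the deposited table gives 1 pooled value per condition, so no spread between replicates could be computed and no comparison has a test. There were no worms of the same elapsed time kept at 20 °C, so days of cold and days of adult age cannot be told apart.

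Initiation brings a ribosome to the start codon of an mRNA. The cap at the mRNA's 5′ end is bound by eIF4E, which docks on the scaffold eIF4G, while eIF2 carries the initiator tRNA to the small ribosomal subunit and eIF3 holds the small subunit and the mRNA together. eIF1 and eIF1A guide the search for the start codon, eIF5B joins the large subunit, and eIF2B recharges eIF2 with GTP for the next round. Phosphorylation of eIF2 alpha, which blocks eIF2B, and control of eIF4E are the classic points at which cells under stress slow protein synthesis, and in worms several eIF4E genes act in the germ line.

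Because the FPKM values turned out to be whole counts divided by coding length, the counts behind each value could be recovered. They came to 675550 at 20 °C, 486109 at 10 °C, and 2657757, 2981339 and 3058810 on days 1, 3 and 5, with a footprint counted once for each isoform that holds it. A ratio between conditions is printed with its 95% interval from the counts, which covers counting error only. A gene is called 2-fold higher or lower where log2(FPKM + 0.5) differs by at least 1, and called beyond counting error where the interval leaves out 1 and both conditions together hold at least 10 counts. Over all genes, the squared deviation between 20 °C and 10 °C was set against that of pure counting. It averaged 0.702 times at 10 to 49 counts in both conditions together, 1.05 times at 50 to 199 and 1.99 times at 200 to 999. True differences between both temperatures enter these values too. Intervals of well-covered genes may be too narrow, and those of genes with few counts too wide. FPKM is a share of all footprints in a condition: it does not measure total protein synthesis, it was not set against mRNA levels, and in whole worms fewer cells of a type and less RNA per cell cannot be told apart.

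Footprints of the initiation factors made up a growing share of those counted at 1 transcript per gene along the series. That total was 424059 counts at 20 °C and 1747362 on day 5, below the totals with all isoforms given above. The 31 genes took 0.455% of it at 20 °C (95% Wilson interval 0.435 to 0.476), 0.499% at 10 °C, 0.56% on day 1, 0.605% on day 3 and 0.725% on day 5 (0.713 to 0.738). The size of this growth depends on the total used. Of the 31 genes, 21 had their highest level on day 5, against 24.7% of all genes, and 18 had their lowest at 20 °C, against 34.0% of all genes with ties counted to 20 °C. From day 1 over day 3 to day 5, 18 of the 31 stepped upward, against 21.3% of all genes, and 3 stepped downward, against 27.0%. A typical gene has fewer counts than the 31, and the 20 °C and 10 °C conditions hold fewer counts than those at 4 °C. Counting error thus weighs more on the order of conditions in a typical gene, so these shares of all genes are not a like background. The 6 yolk (vit) genes, made in the intestine and very abundant, took a falling share of the counts at 1 transcript per gene. It was 19.2% at 20 °C, 17.1% at 10 °C, and 15.6%, 11.4% and 3.88% on days 1, 3 and 5. With the yolk genes left out of the scaling, 15 of the 31 genes were highest on day 5 (18.2% of all genes) and 9 stepped upward through the cold (15.3% of all genes). This scaling, here and below, used the yolk share at 1 transcript per gene. FPKM is scaled to the total with all isoforms, so the size of the correction is approximate.

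**Figure D1:**
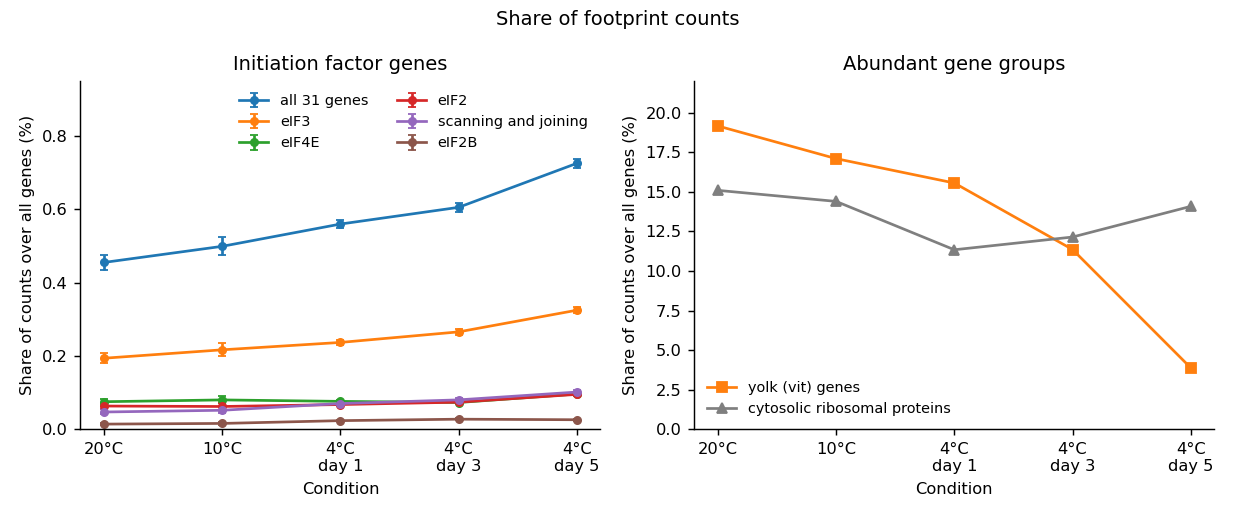
Share of the counts over all genes, each read at 1 transcript (percent), in the 5 conditions for the 31 initiation factor genes and for groups of them (left, bars are 95% Wilson intervals covering counting error only), and for the yolk and ribosomal protein genes (right). The 31 genes went from 0.455% at 20 °C to 0.725% on day 5, while the yolk genes went from 19.2% to 3.88%.

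The levels of the 31 genes spanned a wide range, and the mean over the 5 conditions had a median of 96.6 FPKM among them (3.61 to 451), against 8.95 over all genes. Their coding lengths were ordinary, with a median of 918 nucleotides against 939. They lay on chromosomes I (10 genes), II (11), III (4), IV (1), V (3) and X (2), and the coding exons of none overlapped those of another gene in the WBcel235 annotation. In the comparison of day 5 with 20 °C the 31 genes had a median of 365 counts, against 32 over all genes, so their intervals are narrower than those of a typical gene.

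The 5 eIF4E genes, whose proteins bind the cap, did not move together. ife-1 (chromosome III, 13343417 to 13344618, plus strand, WBcel235), whose protein is found on the P granules of germ cells and is needed for sperm to mature, stood at 266.4 FPKM at 20 °C, 289.7 at 10 °C, 128.4 on day 1, 109.7 on day 3 and 122.3 on day 5. Its 3 levels in the cold lay below both warmer levels. Between 10 °C and day 1 it was 2.26-fold lower (95% counting interval 1.75 to 2.90), and on day 5 it was 2.18-fold lower than at 20 °C (1.73 to 2.73). From 90 counts at 10 °C and 218 on day 1, this was the 1 gene of the 31 that was both 2-fold lower and beyond counting error at the step to 4 °C.

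ife-3 (chromosome V, 6584 to 7828, minus strand), the eIF4E gene most like that of mammals and required for viability, went the other way. It had the highest footprint level of all 31 genes in every condition, at 376.5 FPKM at 20 °C, 382.8 at 10 °C, and 459.4, 436.9 and 599.6 on days 1, 3 and 5. The level on day 5 was 1.59-fold that at 20 °C (1.37 to 1.86), and most of this came after day 3, at 1.37-fold (1.26 to 1.49). The ratio of ife-3 to ife-1, which no scaling of the conditions can move, was 1.41 at 20 °C, 1.32 at 10 °C, 3.58 on day 1, 3.98 on day 3 and 4.90 on day 5. It shifted 2.71-fold between 10 °C and day 1 (2.00 to 3.67), a pair chosen after the values were seen.

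The other eIF4E genes gave fewer counts. ife-2, the main somatic form, whose loss lengthens life in worms, stood at 23.7, 26.9, 25.7, 20.5 and 29.5 FPKM in the 5 conditions in order, and no comparison of it went beyond counting error. ife-4, active in neurons and muscle, stood at 2.32, 3.22, 3.53, 4.72 and 5.12 FPKM from 1 to 10 counts. ife-5, like ife-1 a germline form, stood at 4.89, 6.79, 3.10, 2.21 and 1.08 FPKM from 2 to 5 counts, and its 4.53-fold lower level on day 5 than at 20 °C has a counting interval of 0.328 to 62.5. Depth does not settle a direction for ife-4 or ife-5. The treatment of footprints that match more than 1 place is not stated.

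Markers of other cells are given beside ife-1 because it acts in the germ line. All 8 germline and oocyte genes of the marker list were measured in every condition. Their summed level was 2376 FPKM at 20 °C, 2565 at 10 °C, and 3038, 3267 and 4256 on days 1, 3 and 5. Most of this rise came from cgh-1, at 1069 FPKM at 20 °C and 2785 on day 5. On day 5 against 20 °C, 5 of the 8 were higher beyond counting error (cgh-1, gld-1, glh-1, pgl-1 and puf-5). In that comparison 1 was lower, oma-1, from 241.9 to 159.7 FPKM, while oma-2 and rme-2 had lower levels that were not called. Between 10 °C and day 1, cgh-1, puf-5 and rme-2 were higher beyond counting error, gld-1, oma-1 and oma-2 lower, and glh-1 and pgl-1 neither, with log2 differences from -0.49 to 0.52. The 31 major sperm protein (msp) genes, which resemble each other closely, had a median log2 difference of -0.67 at that step. Of them 29 lay below 0, beside 4466 of all 9945 genes. Only 4 were lower beyond counting error (5.67% of all genes), and the other 27 were not called, at a median of 30 counts over both conditions. Their levels summed to 906.1, 1194, 716.7, 627.3 and 1193 FPKM in the 5 conditions. These sums depend on how the conditions are scaled. The part of sperm or oocyte content in the ife-1 result was not tested.

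ifg-1 (chromosome II, 8217222 to 8222396, plus strand) encodes the only eIF4G of the worm, the scaffold on which eIF4E and the helicase eIF4A meet. Its level was 68.3 FPKM at 20 °C, 74.1 at 10 °C, 90.3 on day 1, 87.1 on day 3 and 64.8 on day 5. Days 1 and 3 were the high points, and day 5 was 1.35-fold lower than day 3 (1.22 to 1.49) and near the 20 °C level, at a ratio of 0.948 (0.797 to 1.13). Since ife-3 was higher on day 5, the ratio of ifg-1 to ife-3 was 0.181, 0.194, 0.197 and 0.199 in the first 4 conditions and 0.108 on day 5. This last step was a change by a factor of 0.542 (0.476 to 0.616), for a pair chosen after the values were seen.

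The subunits of eIF2, which carries the initiator tRNA, parted late in the cold. eif-2gamma (chromosome I, 2313271 to 2315992, plus strand), the GTP-binding core subunit, stood at 168.0 FPKM at 20 °C, 150.3 at 10 °C, and 163.3, 183.4 and 268.3 on days 1, 3 and 5. eif-2alpha, whose product is the target of the stress kinases, stood at 74.8, 88.0, 84.5, 88.3 and 115.0 FPKM in the same order. Both were highest on day 5, where eif-2gamma was 1.46-fold (1.33 to 1.60) and eif-2alpha 1.30-fold (1.11 to 1.53) the day 3 level.

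eif-2beta (chromosome I, 8026601 to 8028752, minus strand), the subunit that contacts eIF2B and eIF5, was instead lowest on day 5. Its level was 112.1 FPKM at 20 °C, 109.3 at 10 °C, 104.9 on day 1, 94.0 on day 3 and 63.0 on day 5. It was 1.49-fold lower on day 5 than on day 3 (1.20 to 1.86) and 1.78-fold lower than at 20 °C (1.29 to 2.43). The ratio of eif-2gamma to eif-2beta, a pair chosen after the values were seen, was 1.499, 1.38, 1.56 and 1.95 in the first 4 conditions and 4.26 on day 5. From day 3 to day 5 it shifted 2.18-fold (1.73 to 2.75), and this does not depend on how the conditions are scaled.

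The 5 eIF2B genes, which encode the exchange factor of eIF2, had low levels and few counts at 20 °C, from 6 to 16. eif-2Balpha, the highest of them at 20 °C, stood at 25.8, 20.2, 38.5, 39.1 and 33.5 FPKM in the 5 conditions. eif-2Bgamma stood at 7.31, 16.9, 20.1, 21.5 and 15.9 FPKM, and eif-2Bepsilon, the catalytic subunit, at 8.14, 9.25, 11.1, 15.6 and 16.7. All 5 had a lower level at 20 °C than in any of the samples at 4 °C. For day 5 against 20 °C the ratio of eif-2Bepsilon, at 2.05 (1.10 to 4.23), was the 1 ratio of the group beyond counting error, and with the yolk genes left out of the scaling it was 1.72 (0.923 to 3.56), while that of eif-2Bgamma was 2.17 (0.941 to 6.16). The ratios of eif-2Balpha, eif-2Bbeta and eif-2Bdelta lay between 1.30 and 1.77 with intervals that held 1.

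eIF3, the largest initiation factor, was measured through 11 subunit genes, which did not share 1 course. Their median level was 94.8 FPKM at 20 °C and 137.9 on day 5. The coefficient of variation among the 11 was 25.8%, 35.1%, 26.5%, 38.8% and 45.1% in the 5 conditions, but 26.1%, 24.6%, 24.8%, 31.5% and 28.8% with each subunit read at the transcript with the most counts, so the wider spread on day 5 rests on eif-3.I at its short transcript. eif-3.E (chromosome I, 10640465 to 10642281, minus strand), a subunit at the edge of the complex, stood at 49.0 FPKM at 20 °C and 39.6 at 10 °C, then at 69.2, 92.2 and 120.8 on days 1, 3 and 5. It was the lowest subunit at both warmer temperatures and on day 1. It was higher beyond counting error at each of the 3 steps in the cold: 1.75-fold into day 1 (1.16 to 2.76), 1.33-fold into day 3 (1.13 to 1.58) and 1.31-fold into day 5 (1.14 to 1.51).

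eif-3.F, eif-3.K and eif-3.L each had their own lowest level at 20 °C and their highest on day 5. eif-3.L (chromosome II, 5619584 to 5622483, minus strand) stood at 94.8, 110.0, 150.2, 182.1 and 198.0 FPKM in the 5 conditions, and eif-3.F at 82.0, 97.6, 134.8, 143.6 and 175.1. eif-3.K, which like eif-3.L is dispensable in worms and whose loss makes them resist stress of the endoplasmic reticulum, stood at 71.7, 102.4, 97.3, 89.5 and 137.9. Day 5 against 20 °C gave 2.09 for eif-3.L (1.70 to 2.58), 2.14 for eif-3.F (1.59 to 2.93) and 1.92 for eif-3.K (1.35 to 2.81).

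The core scaffold subunits followed other courses. eif-3.B stood at 101.3, 109.6, 85.0, 103.0 and 159.3 FPKM, so that it was 1.29-fold lower on day 1 than at 10 °C (1.04 to 1.58) and then 1.55-fold higher on day 5 than on day 3 (1.40 to 1.71). eif-3.C (chromosome I, 9976426 to 9979662, minus strand) stood at 76.3, 91.5, 78.3, 58.8 and 70.9 FPKM, with its lowest level on day 3, 1.33-fold below day 1 (1.18 to 1.51). eif-3.J, a loosely held subunit, went from 134.4 and 109.5 FPKM in the warmer worms to 97.7, 90.8 and 93.1 in the cold, 1.44-fold lower on day 5 than at 20 °C (1.05 to 1.95). The ratio of eif-3.E to eif-3.C, again chosen after seeing the values, was 0.642 at 20 °C, 0.433 at 10 °C, 0.885 on day 1, 1.57 on day 3 and 1.70 on day 5, a shift of 2.65-fold from 20 °C to day 5 (1.85 to 3.81).

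eif-3.D, which binds caps in human cells, stood at 80.4, 86.5, 93.4, 103.0 and 116.0 FPKM, and eif-3.H at 101.1, 93.7, 107.3, 130.1 and 143.5. Their ratios for day 5 against 20 °C were 1.44 (1.16 to 1.82) and 1.42 (1.11 to 1.84), and both intervals held 1 with the yolk genes left out of the scaling, at 1.21 (0.975 to 1.53) and 1.19 (0.934 to 1.54). eif-3.G moved least of all 31 genes, within 121.0 to 133.4 FPKM. eif-3.I was read at a transcript with only 222 coding nucleotides and 15 counts at 20 °C, where it stood at 100.02, 194.6, 152.5, 225.1 and 328.4 FPKM with a ratio of 3.28 for day 5 against 20 °C (1.95 to 5.97). At its transcript of 984 nucleotides the values were 114.3, 129.6, 137.3, 167.4 and 194.7 FPKM and the ratio was 1.70, so the direction held but the size did not. The symbols egl-45 and cif-1 hide the remaining subunits eIF3a and eIF3m from the name rule. Looked up after the values were seen, egl-45 had a day 5 to 20 °C ratio of 1.68 (1.38 to 2.07) and cif-1 of 1.69 (1.38 to 2.09).

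**Figure D2:**
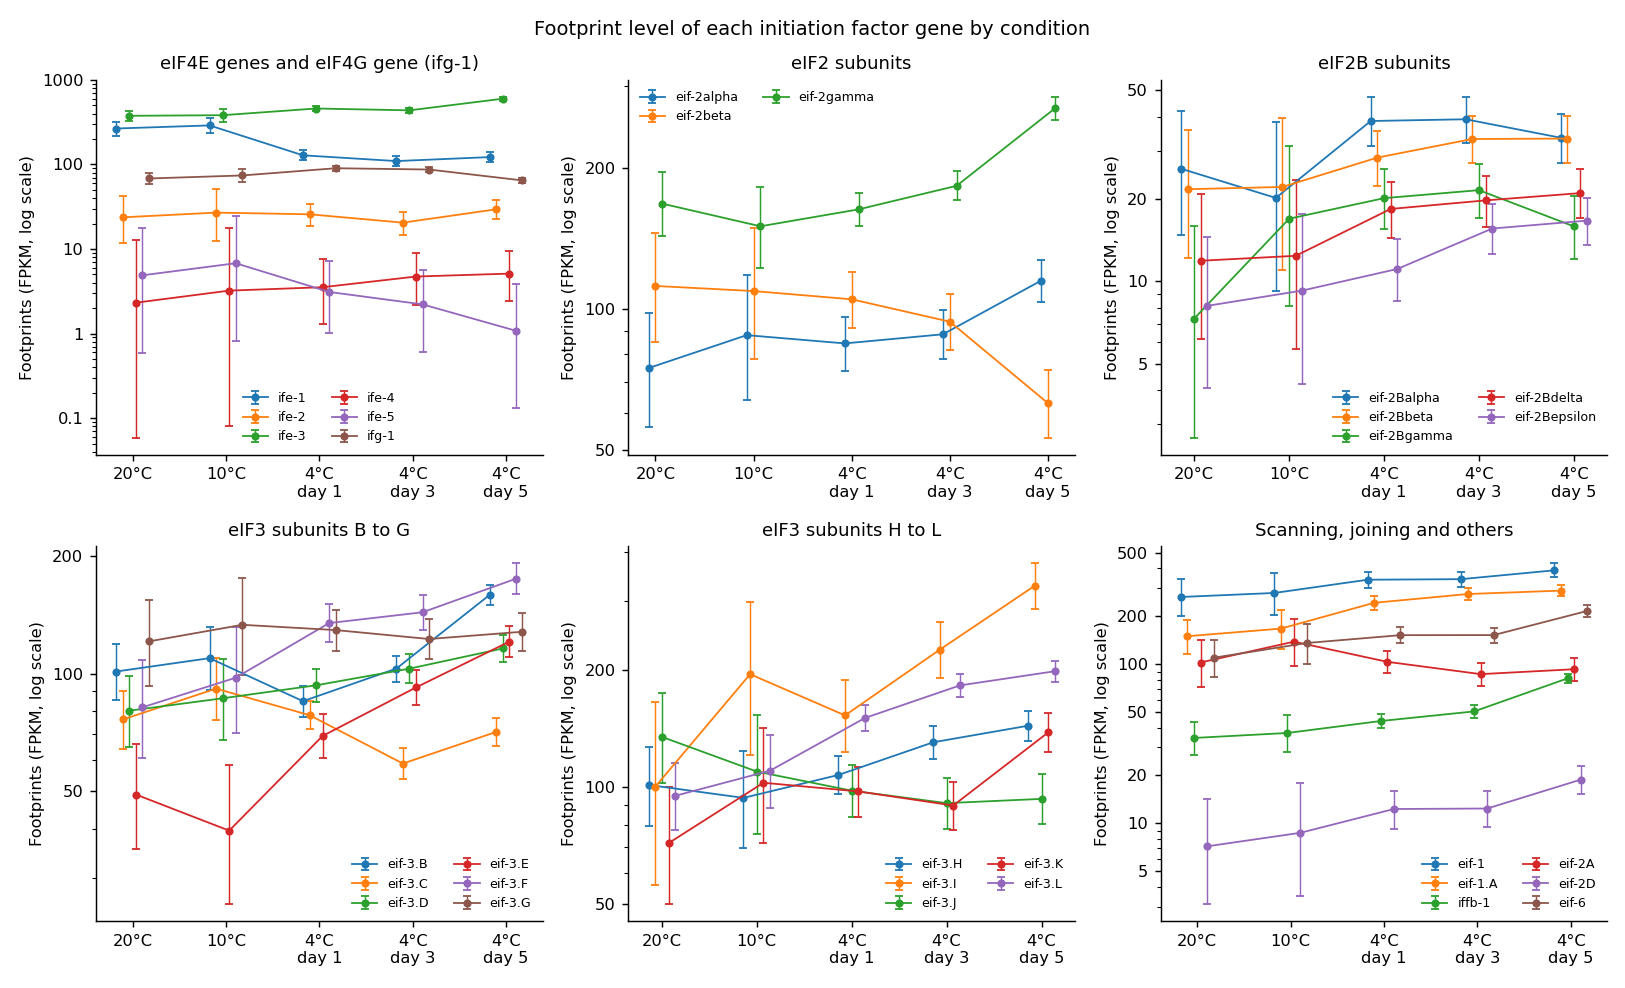
Footprint level (FPKM, log scale) of each of the 31 genes in the 5 conditions, 1 point per pooled condition, with 95% Poisson intervals that cover counting error only. ife-1 drops between 10 °C and day 1, eif-2beta parts from the other eIF2 subunits between day 3 and day 5, and eif-3.E climbs from 39.6 FPKM at 10 °C to 120.8 on day 5.

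The factors of scanning and subunit joining had higher levels in the cold than in both warmer conditions. eif-1 and eif-1.A, which keep the scanning ribosome open until it meets the start codon, stood at 264.7, 280.5, 339.8, 342.5 and 389.3 FPKM and at 150.1, 167.5, 243.3, 276.2 and 290.3 FPKM in the 5 conditions. For eif-1 the ratio of day 5 to 20 °C was 1.47 (1.12 to 1.97), or 1.24 (0.939 to 1.66) with the yolk genes left out of the scaling, and no single step of it went beyond counting error as scaled here. Most of the gain of eif-1.A came at the step into the cold, where it was 1.45-fold higher on day 1 than at 10 °C (1.09 to 1.97). iffb-1 (chromosome III, 2314436 to 2326901, plus strand), the gene of the joining factor eIF5B, stood at 34.4, 37.0, 44.0, 50.5 and 81.5 FPKM. Its gain came mostly after day 3, at 1.61-fold (1.44 to 1.81), the highest ratio among the 31 genes at that step, and day 5 was 2.37-fold the 20 °C level (1.87 to 3.04).

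Of the remaining genes, eif-6, whose product keeps free large subunits from joining, stood at 109.9, 136.0, 152.3, 152.5 and 216.2 FPKM and was 1.97-fold higher on day 5 than at 20 °C (1.49 to 2.65). eif-2D, an alternative carrier of the initiator tRNA, stood at 7.18, 8.73, 12.3, 12.4 and 18.8 FPKM and was 2.62-fold higher (1.28 to 6.25), from 8 counts at 20 °C. eif-2A, another such carrier, stayed between 86.7 and 138.7 FPKM at its short transcript and between 78.6 and 108.1 at the full-length one.

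Counted over the whole group, mild cooling gave no difference beyond counting error for the initiation factor genes as read here, and 1, for eif-2A at 1.37 (1.02 to 1.86), when each gene was read at the transcript with the most counts. At 10 °C against 20 °C, 1 of the 31 genes, eif-2Bgamma with 6 and 10 counts, was 2-fold higher, against 12.2% of all genes, and 0 were lower, against 9.1%. In that comparison 0 of the 31 were beyond counting error in either direction (1.12% of all genes higher and 0.875% lower). Calls that met both rules, named clear calls here, were thus 0 as well (0.362% of all genes higher and 0.101% lower). The median log2 difference was 0.14, against 0.06 over all genes. With a median of 96 counts per gene over both conditions, against 9 over all genes, small differences were not detectable at this depth. Genes with few counts pass 2-fold by counting error more often. The 2-fold shares of all genes, here and below, are therefore not a like background for the 31.

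The step from 10 °C to day 1 moved few of the genes by 2-fold. Of the 31, 0 were 2-fold higher, against 17.8% of all genes, and 2 were lower, ife-1 and ife-5, against 14.5%. The 31 had a median of 275 counts over both conditions, against 30 over all genes. Beyond counting error 5 were higher (eif-3.E, eif-1.A, eif-3.L, ifg-1 and ife-3), against 8.46% of all genes, and 2 lower (ife-1 and eif-3.B), against 5.67%. Clear calls were 0 higher (4.92% of all genes) and 1 lower, ife-1 (3.08%). The calls of ifg-1, at 1.22, and of ife-3, at 1.20, were lost when the yolk genes were left out of the scaling. The median log2 difference was 0.16, against 0.10 over all genes.

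From day 1 to day 3 none of the 31 passed 2-fold in either direction (5.38% of all genes higher, 6.78% lower). Beyond counting error 8 were higher, against 9.09% of all genes, and 1 was lower, against 8.88%. Of the 8, 5 were eIF3 subunits (eif-3.I, eif-3.E, eif-3.B, eif-3.H and eif-3.L) and the others were eif-2Bepsilon, iffb-1 and eif-2gamma. The lower gene was eif-3.C. With the yolk genes left out of the scaling, 4 were higher (eif-3.I, eif-3.E, eif-3.B and eif-3.L) and 3 lower (eif-3.C, ife-1 and ife-3), and with median-of-ratios scaling 5 and 1. The median log2 difference was 0.06, against 0.04 over all genes, and it was -0.0053 without the yolk genes. Clear calls were made for 2.06% of all genes higher and 3.36% lower, and for 0 of the 31.

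From day 3 to day 5 more of the group was called higher than lower, and more of all genes lower than higher. Of the 31, none passed 2-fold, while 2.85% of all genes were higher by that much and 14.7% lower (clear calls 1.12% and 7.74%, and 0 of the 31). Beyond counting error 13 were higher, against 11.9% of all genes, and 2 were lower, eif-2beta and ifg-1, against 14.4%. All 11 eIF3 genes had a higher level on day 5 than on day 3, beside 39.8% of all genes, and 7 of the 11 were beyond counting error. All 6 elongation factor genes were higher at this step too. With the yolk genes left out of the scaling, 9 of the 11 eIF3 genes were higher, and the share of all genes was not computed. The median log2 difference was 0.16, against -0.08 over all genes, and without the yolk genes it was 0.04, against -0.20.

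**Figure D3:**
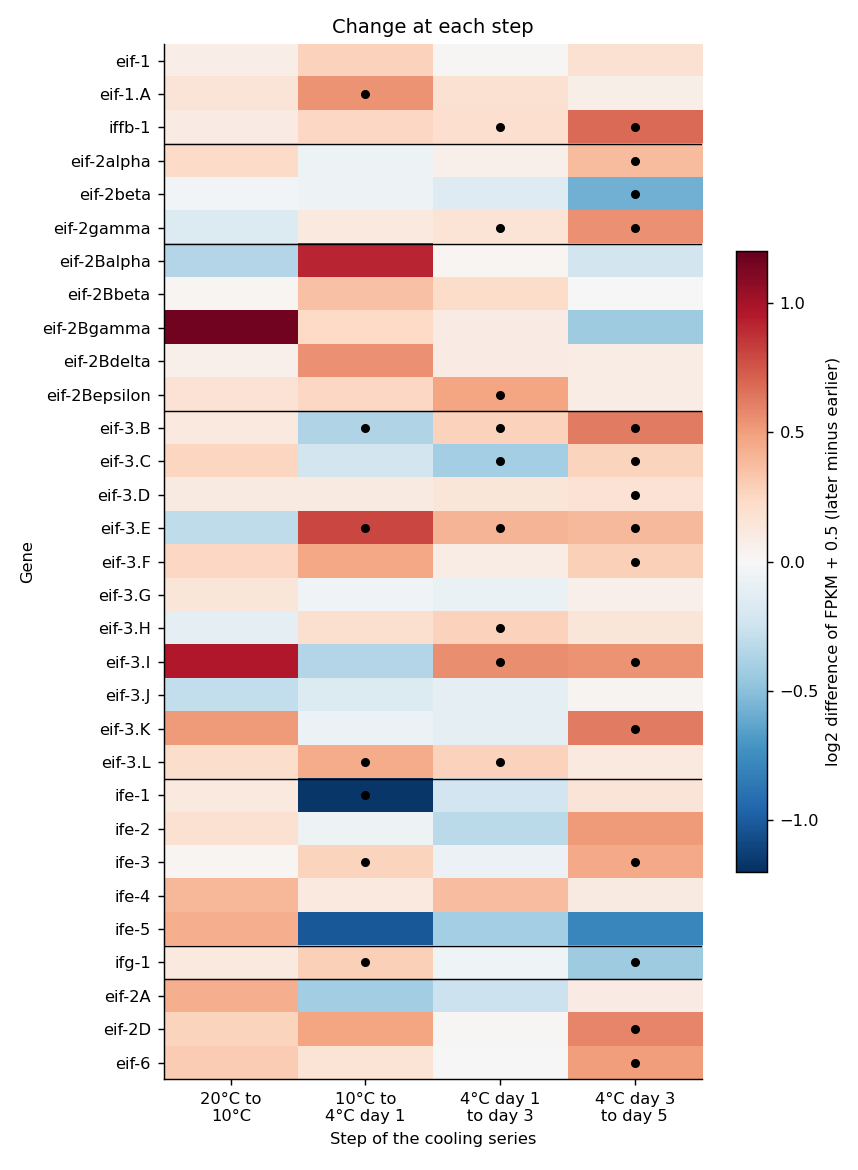
Log2 difference of FPKM + 0.5 at each step of the cooling series for the 31 genes, in blocks by complex, with a dot where the counting interval of the ratio leaves out 1. The step into 4 °C has 7 dots, day 1 to day 3 has 9, and day 3 to day 5 has 15, of which 13 are higher (10 with the yolk genes left out of the scaling).

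Over the whole course, day 5 against 20 °C, 7 of the 31 genes were 2-fold higher, against 23.6% of all genes, and 2 were 2-fold lower, against 21.5%. Of the 7, all but eif-2Bgamma were also beyond counting error: eif-3.I, eif-2D, eif-3.E, iffb-1, eif-3.F and eif-3.L (clear calls higher were made for 11.9% of all genes). Of the 2 lower genes ife-1 was a clear call (7.88% of all genes). Beyond counting error, whatever the size, 17 were higher, against 17.9% of all genes, and 3 were lower (ife-1, eif-2beta and eif-3.J), against 10.4%. The share called beyond counting error is not alike for genes with more and with fewer counts, so the 17 cannot be read against that percentage alone. The median log2 difference of the 31 was 0.65, against 0.13 over all genes.

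These values depend on whether the yolk genes enter the scaling. The correction was taken from the yolk share at 1 transcript per gene. Its size on the FPKM total may differ, and calls near the limit rest on it. Without the yolk genes, the median over all genes went from 0.13 to -0.08 on the log2 scale and that of the 31 genes from 0.65 to 0.40, so the distance between both was 0.52 and 0.48. The 2-fold higher genes were then 3 (eif-3.I, eif-2D and eif-3.E) and those beyond counting error 12 higher and 5 lower, with eif-3.C and ifg-1 joining the lower ones. The 5 higher calls lost were eif-1, eif-2alpha, eif-2Bepsilon, eif-3.D and eif-3.H. Under this scaling iffb-1 had a ratio of 1.99 (1.57 to 2.56) and ife-3 of 1.34 (1.15 to 1.57), while ife-1 was 2.59-fold and eif-2beta 2.12-fold lower.

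**Figure D4:**
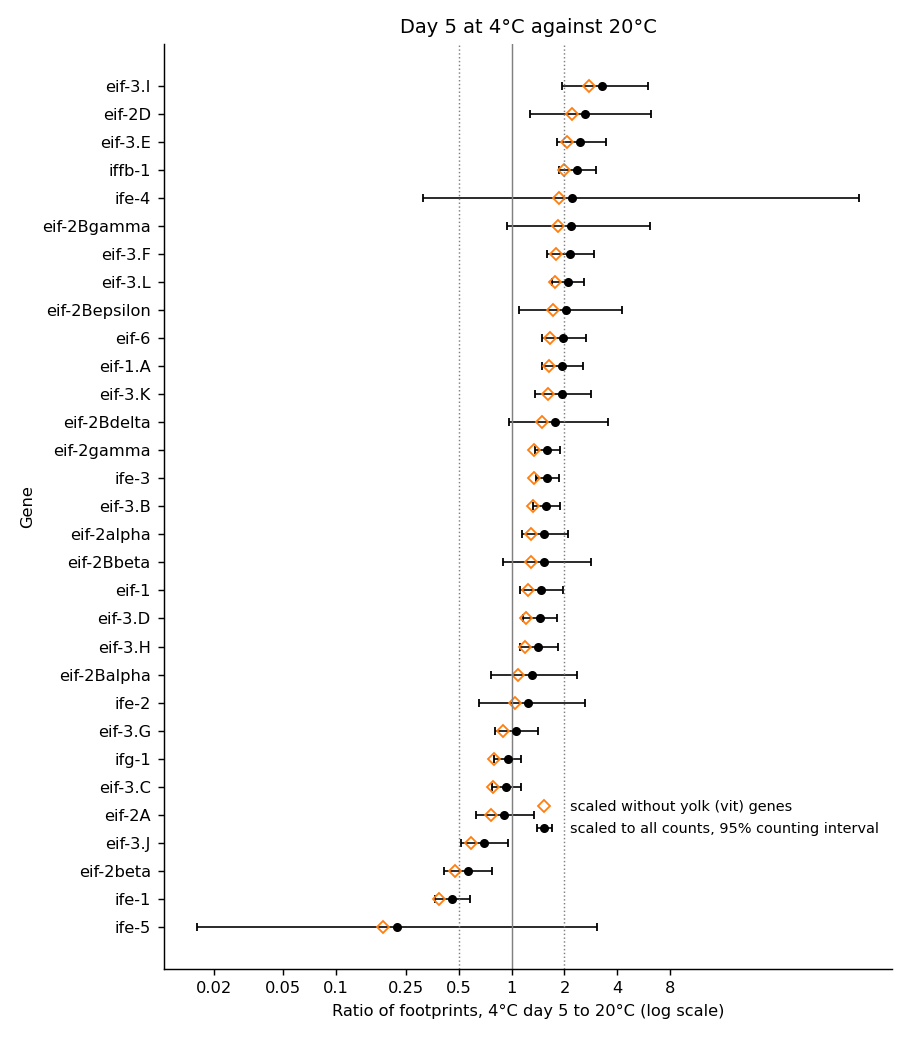
Ratio of footprints on day 5 at 4 °C to those at 20 °C (log scale) for the 31 genes in order of the ratio, with 95% counting intervals (black) and with the yolk genes left out of the scaling (orange). Dotted lines mark 2-fold, and the intervals of ife-1, eif-2beta and eif-3.J lie below 1 while 17 lie above it, 12 of which stay above it without the yolk genes.

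Within the cold, day 5 against day 1, 1 gene was 2-fold higher, eif-3.I at its short transcript (5.78% of all genes), and 1 lower, ife-5 from 5 and 2 counts (17.5% of all genes). Beyond counting error 16 were higher, against 15.7% of all genes, and eif-2beta and ifg-1 were lower, against 16.8%. Clear calls were 1 higher, eif-3.I (3.16% of all genes), and 0 lower (10.7%). Among the higher ones eif-3.B had a ratio of 1.87 (1.68 to 2.09), iffb-1 of 1.85 (1.64 to 2.10) and eif-3.E of 1.75 (1.49 to 2.05). The median log2 difference was 0.31, against -0.09 over all genes. With the yolk genes left out of the scaling, 11 were higher and 4 lower (eif-2A, eif-2beta, eif-3.C and ifg-1), and the median was 0.13, against -0.24.

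Other genes of initiation, from a list of 20 names outside the rule, of which 17 were kept, are given beside them. For day 5 against 20 °C, 6 of the 17 were 2-fold higher and 0 lower, beside the 23.6% and 21.5% of all genes, with a median log2 difference of 0.48. Clear calls higher were 5 (11.9% of all genes), and the gene without one, rheb-1, rested on 1 count at 20 °C. inf-1, the gene of the helicase eIF4A, stood at 391.3, 526.1, 727.6, 816.4 and 1186 FPKM in the 5 conditions, a ratio of 3.03 (2.45 to 3.79). It was read at a short transcript of 348 coding nucleotides with 92 counts at 20 °C. No reading at another transcript was made, so the size of this ratio may not hold for the whole gene. ifet-1, which binds eIF4E and holds mRNAs silent in the germ line, stood at 224.7, 264.6, 378.6, 492.6 and 840.6 FPKM, a ratio of 3.74 (3.36 to 4.18). Both ratios were above those of ife-3 and ifg-1, and neither interval overlapped the intervals of those genes, with inf-1 read at its short transcript only.

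Regulators on the same list were mixed. larp-1, which binds mRNAs of the translation machinery, had a day 5 to 20 °C ratio of 2.88 (2.34 to 3.58), gcn-1, an activator of the eIF2 alpha kinase gcn-2, of 2.31 (1.98 to 2.72), and the ribosomal S6 kinase gene rsks-1 of 2.09 (1.44 to 3.13). pab-1, the main poly(A)-binding protein gene, was 1.91-fold lower on day 1 than at 10 °C (1.72 to 2.12). mnk-1, the eIF4E kinase gene, stood at 15.4, 24.3, 48.1, 42.6 and 21.6 FPKM, highest on day 1. At the step from 10 °C to day 1, pab-2 was 2.83-fold higher (1.65 to 5.27) and drr-2, the eIF4H gene, 4.30-fold lower (1.76 to 10.2).

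Set beside the rest of the translation machinery, the initiation factors had the highest median in some comparisons and not in others. For day 5 against 20 °C it was 0.65 for the 31 genes, 0.27 for 19 cytosolic aminoacyl-tRNA synthetases, 0.15 for 6 elongation factors and -0.38 for 81 cytosolic ribosomal proteins. For day 1 against 10 °C the medians were 0.16, -0.06, -0.49 and -0.39 in the same order. Within the cold the elongation factors had higher medians than the initiation factors. In the same order as before, the 4 medians were 0.06, 0.21, 0.21 and -0.06 for day 3 against day 1, and 0.16, 0.11, 0.28 and 0.17 for day 5 against day 3. For day 5 against day 1 they were 0.31, 0.31, 0.45 and 0.09. Ribosomal proteins took 15.1% of the counts at 1 transcript per gene at 20 °C, 11.3% on day 1 and 14.1% on day 5. For day 5 against 20 °C, markers of intestine, muscle and cuticle were lower beyond counting error in 5 of 6 genes, against 10.4% of all genes. Those of neurons had too few counts to say. In that comparison the myosin gene unc-54 of body wall muscle was 7.05-fold lower, the cuticle collagen gene col-19 109-fold lower, and the yolk genes vit-2 and vit-6 7.20-fold and 5.12-fold lower. The other muscle gene, myo-3, fell less, from 9.27 FPKM at 20 °C to 4.92 on day 5, which is under 2-fold. The intestinal gene ges-1, from 5 and 13 counts, was not called. The 8 germline markers had a median log2 difference of 0.24 in that comparison, and the part of these shifts between tissues in the results for the initiation factors was not tested.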

How the data were processed

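Footprints of 28 to 30 nucleotides were cut from a gel, and the authors trimmed the reads with fastp (0.23.4), removed contaminants, aligned to WBcel235 with STAR (2.7.11b) and estimated expression through ORFik with DESeq2 (1.42.1). The deposited table holds FPKM per transcript, 1 pooled column per condition, for 31865 transcripts. The way in which the 2 libraries were pooled is not stated. 1 further column matched no sample and was not used. Multiplying FPKM by coding length with the stop codon (Ensembl 115) and dividing by the column's step gave whole counts for 100% of values within 0.01 counts. The step, the FPKM of 1 count in 1000 nucleotides, ran from 0.327 (day 5) to 2.06 (10 °C), so that 3 counts equalled 0.981 to 6.17 FPKM. Ratios of counts were given 95% Clopper-Pearson intervals, which cover counting error only, and ratios of gene pairs log-normal ones, in Python 3.11.15 with SciPy 1.17.1 and pandas 2.3.3, and the code was checked on simulated data. log2 differences used a pseudocount of 0.5 FPKM and a mean of at least 1 FPKM. No replicate test, count model or set test was run. The genes and lists were chosen with earlier results of these data known. Levels in all conditions are given for genes whose interval left out 1 in any of 6 comparisons, for every ife gene and for the ends of each complex, and other members by range. The alternatives were other pseudocounts, filters, scalings, transcripts and call rules. Scalings without yolk or ribosomal protein genes used the share of those genes in the counts at 1 transcript per gene. That total was 424059 at 20 °C, against 675550 with all isoforms, so these scalings are approximate.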

Additional observations from a re-analysis of the deposited data

How the results depend on the processing

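No paired analysis was possible because each condition was deposited as 1 pooled column, and leaving out replicates was not run for the same reason. Of 120 recomputed counts of called genes, 104 stayed within 1.5 times and 16 moved, and of 48 medians of the 31 genes 40 stayed and 8 moved. The medians for day 3 against day 1, day 5 against day 3, day 5 against 20 °C and day 5 against day 1 were -0.0053, 0.040, 0.40 and 0.13 without the yolk genes, the first with its sign changed. With median-of-ratios scaling those for 10 °C against 20 °C, day 1 against 10 °C, day 3 against day 1 and day 5 against day 3 were 0.035, 0.084, 0.029 and 0.28. Asking for a clear call (2-fold and beyond counting error) left 0 higher genes at 10 °C against 20 °C instead of 1. It left 1 lower gene instead of 2 for day 1 against 10 °C and for day 5 against 20 °C, and 0 instead of 1 for day 5 against day 1, and doubling the counts in that rule gave 1, 1 and 0 as well. These losses are ife-5 and eif-2Bgamma, which rest on few counts. A mean of at least 5 FPKM, which drops ife-5, gave the same 1, 1 and 0, and a pseudocount of 1 FPKM gave 1 lower gene for day 1 against 10 °C and 0 for day 5 against day 1. The 7 genes 2-fold higher on day 5 against 20 °C were 4 with median-of-ratios scaling and 3 without the yolk genes, an alternative chosen after seeing the data. The 1 gene 2-fold higher for day 5 against day 1 was lost (0) without the yolk genes and with the transcript of most counts, where eif-3.I had a ratio of 1.42. Over all genes, 52.3% of the 2-fold calls for day 5 against 20 °C were higher, and 41.4% without the yolk genes. Among 116 values of single genes, 109 stayed and 7 moved, none across 1. The distance between the median of the 31 genes and that of all genes for day 5 against 20 °C was 0.33 with the filter at 5 FPKM and 0.65 with no filter.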
